A study of Mus musculus with 12 samples.

Results

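Notch signalling was examined through 10 mouse genes: the receptors Notch1, Notch2 and Notch3, the ligands Jag1, Jag2 and Dll1, and the transcription factors Hes1, Hes6, Hey1 and Heyl. They were chosen by gene name, and all 10 were found among the 78298 genes of the table and were tested with 13318 genes in all. The samples were muscle tissues of C2C12, an established mouse myoblast line, grown on a hydrogel of gelatin carrying methacryl groups. The genotypes were wild type (WT, 6 libraries) and RGECO (6 libraries), a derivative that carries a genetically encoded calcium indicator; no source used here tells whether the derivative is 1 clone or which promoter drives the indicator. Both lines shared 14 days of differentiation in medium with 10% inactivated horse serum, 50 ng per ml IGF-1 and 1 mg per ml aminocaproic acid.

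Notch receptors are cut when a ligand on a neighbouring cell binds them, and the freed intracellular part joins the DNA-binding protein Rbpj to switch on genes such as Hes1, Hey1 and Heyl. In skeletal muscle the pathway is known for holding satellite cells, the stem cells of muscle, in an undifferentiated and quiescent state. C2C12 cultures leave some cells unfused when they differentiate, the reserve cells, which resemble satellite cells. In a bulk library, fewer cells of a type and less RNA per cell cannot be told apart, so the values below do not separate reserve cells from myotubes.

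RGECO replicate 4 held 825 counts, with 0 for every one of the 10 genes, and is left out unless all 12 libraries are named. A call lost with all 12 libraries is thus lost on adding this near-empty library. The other 11 libraries held 5881622 to 11926220 counts. The floor of 3 counts therefore lay between 0.252 and 0.510 counts per 1000000 of the library total, with no TMM scaling, which covers counting error only. Levels below in CPM are counts per 1000000 of the library, TMM-scaled. All 10 markers of skeletal muscle were measured, with a summed level of 19106 to 25922 CPM in WT and 24243 to 30258 CPM in RGECO. Endothelial markers summed to 0 to 1.33 CPM in WT and 0.480 to 1.93 CPM in RGECO, with Tie1 and Emcn at 0 in every library, and none of the 6 passed the filter on low counts. Malat1 took 0.156% to 0.898% of counts in WT and 0.180% to 0.645% in RGECO, and mitochondrial genes took 0.204% to 1.68% and 0.298% to 1.33%.

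Notch3 was the 1 gene of the 10 called as higher in RGECO, a call lost in 8 of 11 fits that left out 1 library. The shares of Notch3 and Notch2 in receptor RNA did not overlap between the lines, and these shares were not tested. The promoter windows of the 3 receptors are therefore printed side by side, from 250 bases before to 50 bases after the start of each gene in RefSeq (GRCm38.p6), 5′ to 3′ on the strand of the gene. Capitals mark GC boxes, the letters GGGCGG on either strand, a motif read by the Sp1 family. The windows lie at chr2:26503773-26504072 on the minus strand for Notch1, chr3:98013288-98013587 on the plus strand for Notch2 and chr17:32166841-32167140 on the minus strand for Notch3.
Notch1: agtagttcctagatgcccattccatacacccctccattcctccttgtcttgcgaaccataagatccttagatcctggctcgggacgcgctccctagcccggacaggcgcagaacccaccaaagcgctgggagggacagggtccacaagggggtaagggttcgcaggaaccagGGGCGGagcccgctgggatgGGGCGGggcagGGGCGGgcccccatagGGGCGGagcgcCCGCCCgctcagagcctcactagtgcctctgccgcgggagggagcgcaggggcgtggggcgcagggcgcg
Notch2: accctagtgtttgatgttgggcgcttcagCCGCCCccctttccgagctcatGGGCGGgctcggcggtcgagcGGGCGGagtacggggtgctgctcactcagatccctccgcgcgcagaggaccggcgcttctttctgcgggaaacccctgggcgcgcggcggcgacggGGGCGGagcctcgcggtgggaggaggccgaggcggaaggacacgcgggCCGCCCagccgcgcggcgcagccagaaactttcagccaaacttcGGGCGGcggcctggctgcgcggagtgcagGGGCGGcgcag
Notch3: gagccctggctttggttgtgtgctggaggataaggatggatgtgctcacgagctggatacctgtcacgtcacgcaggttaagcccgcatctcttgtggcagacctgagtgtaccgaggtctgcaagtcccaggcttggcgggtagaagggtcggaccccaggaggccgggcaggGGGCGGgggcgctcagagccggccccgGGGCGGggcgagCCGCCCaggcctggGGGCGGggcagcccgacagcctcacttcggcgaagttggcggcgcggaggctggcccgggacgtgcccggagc

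The windows of Notch1, Notch2 and Notch3 held 5, 7 and 4 GC boxes and were 68.3%, 73.0% and 70.0% G or C, against a median of 52.7% over 32851 promoter windows. Windows matched 7 of the 10 genes, 9 windows in all, with 2 each for Dll1 and Hes6. The 3 factor genes Hes1, Hey1 and Heyl had no matching entry. A GC box stood in 5 of the 9 windows and in 35.7% of all windows. The letters GTGGGAA, the core of the Rbpj site, were searched on both strands and stood in 0 of the 9 windows and in 6.38% of all windows. The E-box CANNTG, read by myogenic factors such as Myod1, stood in 5 of the 9 windows and in 72.3% of all windows, and in 0 of the 3 receptor windows. These matches describe letters only.

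Among the receptors, Notch3 RNA was higher in RGECO, while Notch1 and Notch2 did not pass the test. Notch3 (ENSMUSG00000038146, a protein-coding gene on chromosome 17: 32120820 to 32166852, GRCm38) encodes a receptor known from vascular smooth muscle and from satellite cells. It stood at 164 CPM in the lowest WT library, 194 in the median and 265 in the highest. In RGECO replicates 1, 2, 3, 5 and 6 it stood at 321, 274, 315, 391 and 224 CPM. The lines overlapped, because RGECO replicate 6 lay below WT replicates 2 and 3 at 245 and 265 CPM, and the other RGECO libraries lay above every WT library. The log2 fold change was 0.58 ± 0.16 (SE; WT 204 ± 41.8 CPM, SD, n = 6; RGECO 305 ± 61.9 CPM, SD, n = 5), with an adjusted p of 0.0307 by edgeR's quasi-likelihood test.

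Notch3 was 1 of 10 genes called, where 8.35% of all tested genes were called, 3.42% as higher and 4.93% as lower in RGECO. At an unadjusted p under 0.05 it was again 1 of 10, where 22.1% of all tested genes passed. The call was close to the threshold: it was lost in 8 of 11 fits that left out 1 library (without replicate 1, 4, 5 or 6 of WT or 1, 2, 3 or 5 of RGECO, adjusted p = 0.0503 to 0.0846) and when all 12 libraries were fitted (0.45 in log2, adjusted p = 0.625), where 6.31% of genes were called. It was kept without replicate 2 or 3 of WT or 6 of RGECO (adjusted p = 0.0154 to 0.0189), and the log2 fold change stayed between 0.47 and 0.69 over the 11 fits. With the share of Malat1 or of mitochondrial genes in the counts as a covariate it was 0.45 and 0.42 (adjusted p = 0.0209 and 0.00104). Those covariate fits called 2771 and 3133 genes, against 1112 in the main fit. Adjusted p of Notch3 ranged from 0.00104 to 0.625 over the alternatives other than single libraries left out.

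On TPM, the authors' length-corrected scale, the difference of Notch3 was larger. Notch3 stood at 25.9, 29.2 and 41.9 TPM in the lowest, median and highest WT library and at 69.3, 44.0, 64.8, 86.6 and 39.5 TPM in RGECO replicates 1, 2, 3, 5 and 6. The log2 fold change on log2(TPM + 1) was 0.91 (limma adjusted p = 0.0216), and Notch3 was again 1 of 10 called, where 4.29% of genes were. The ratio of counts to TPM follows the transcript length that Salmon assigned. Relative length is that ratio over the gene's geometric mean across libraries, divided again by the library's median across tested genes. For Notch3 this relative length was 0.91, 1.10, 0.85, 0.74 and 1.00 in RGECO replicates 1, 2, 3, 5 and 6, against 1.00 to 1.10 in the WT libraries. With that length as an offset, chosen after the data were seen, the count fit gave 0.88 (adjusted p = 0.0140).

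Notch3 also marks smooth muscle and pericytes, so 7 other markers of those cells are set beside it. Their summed level was 1447 to 1956 CPM in WT and 987 to 1507 CPM in RGECO. Most of that sum was Acta2, named after its values were seen, at 1351 ± 145 and 1027 ± 190 CPM (SD, n = 6 WT and 5 RGECO). Acta2 did not pass, at -0.39 in log2 (adjusted p = 0.0669). Of the 4 markers that were tested 0 rose and 2 fell, against 8.35% called of all tested genes, 3.42% as higher and 4.93% as lower. Those that fell were Pdgfrb, a growth factor receptor of pericytes and fibroblasts, at -1.59, and Tagln, an actin-binding protein, at -0.70 (adjusted p = 1.03e-05 and 0.0178). The Tagln call was lost on leaving out replicate 5 of WT or 3 or 6 of RGECO (adjusted p = 0.0518 to 0.0544), with all 12 libraries (0.0887) and on log2(TPM + 1) (0.0700). The defining markers Rgs5, Myh11 and Cnn1 were too low for the test, with 8, 61.0 and 83 counts over the 11 libraries. Their part in the Notch3 result was not tested.

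**Figure D1:**
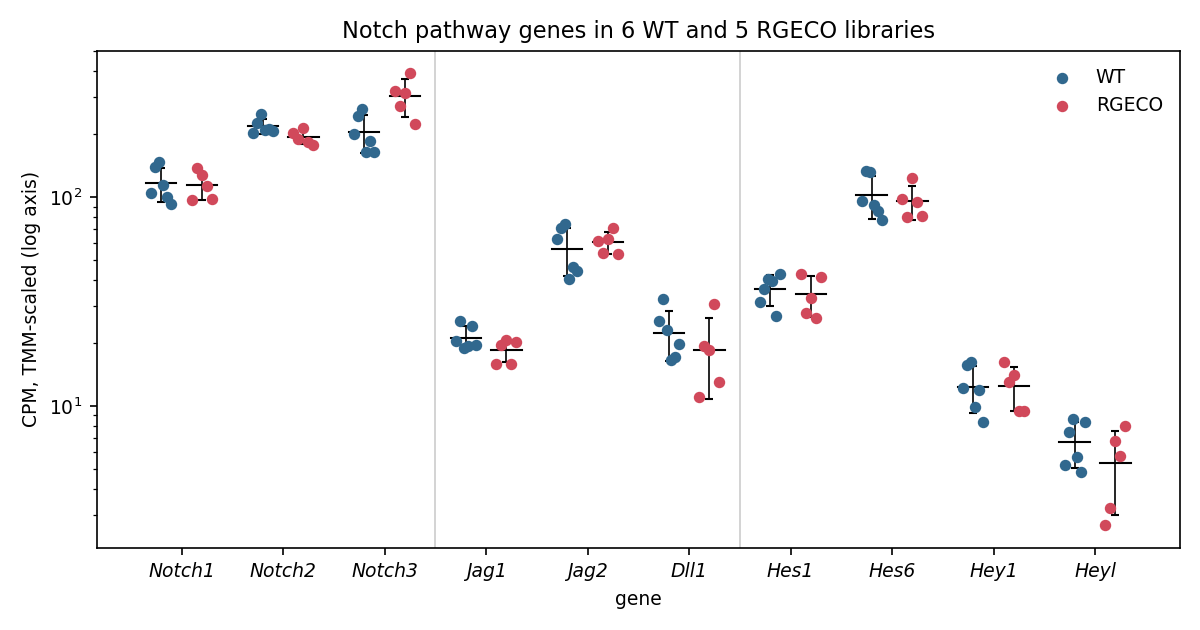
Level of the 10 Notch pathway genes in CPM (log axis) in each of 6 WT (blue) and 5 RGECO (red) libraries, with receptors, ligands and Hes or Hey factors divided by grey lines; black bars are the mean and whiskers the SD. In all 10 genes the lines overlap, and Notch3 is the 1 gene in which 4 of the 5 RGECO points lie above every WT point.

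Notch1 (ENSMUSG00000026923, chromosome 2: 26457903 to 26516663, GRCm38), the receptor best known from T-cell and stem cell fates, did not pass the test. It stood at 93.1, 109.5 and 147 CPM in the lowest, median and highest WT library and at 97.0, 137, 128, 113 and 97.7 CPM in RGECO replicates 1, 2, 3, 5 and 6. Every RGECO value lay inside the WT range, and the log2 fold change was -0.02 with a 95% interval of -0.32 to 0.28 (adjusted p = 0.954). Its TPM in RGECO replicate 1 was 47.3, against 13.4 to 19.9 in the other 4 RGECO libraries, while its CPM there was the lowest of the line. The relative length of Notch1 in that library was 0.37, against 0.86 to 1.19 in the other 10. The sign of the Notch1 difference turned on log2(TPM + 1), to 0.27 (limma adjusted p = 0.659).

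Notch2 (ENSMUSG00000027878, chromosome 3: 98013527 to 98150361, GRCm38), a receptor that satellite cells also carry, varied least within the lines among the 3. It stood at 202, 212 and 249.6 CPM in the lowest, median and highest WT library and at 202, 190.1, 215, 183 and 178 CPM in RGECO replicates 1, 2, 3, 5 and 6. RGECO replicates 1, 2, 5 and 6 lay below every WT library, replicate 1 by less than 1 CPM, and replicate 3 lay within the WT range. Its log2 difference was -0.17 with a 95% interval of -0.37 to 0.03 (adjusted p = 0.307).

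The make-up of receptor RNA separated the libraries of the 2 lines. Of the summed TPM of the 3 receptors, Notch3 gave 42.4% ± 4.12 in WT and 56.3% ± 9.58 in RGECO (SD, n = 6 and 5). Its share ran from 36.2% to 45.4% in WT and from 48.1% to 71.3% in RGECO, with no overlap. Notch2 made up 34.9% ± 1.57 and 23.6% ± 5.84 (SD, n = 6 and 5), also with no overlap, since WT did not fall below 32.3% and RGECO did not exceed 31.5%. Notch1 made up 22.7% ± 3.60 and 20.1% ± 8.16 (SD, n = 6 and 5), with the lines overlapping. On estimated counts, which are not corrected for length, the Notch3 share was 37.7% ± 2.69 and 49.4% ± 5.03 (SD, n = 6 and 5), again with no overlap, and so was that of Notch2 at 40.8% ± 3.05 and 31.8% ± 3.28. Shares of 1 sum are not independent and no test is given, as the genes were chosen with earlier results known.

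**Figure D2:**
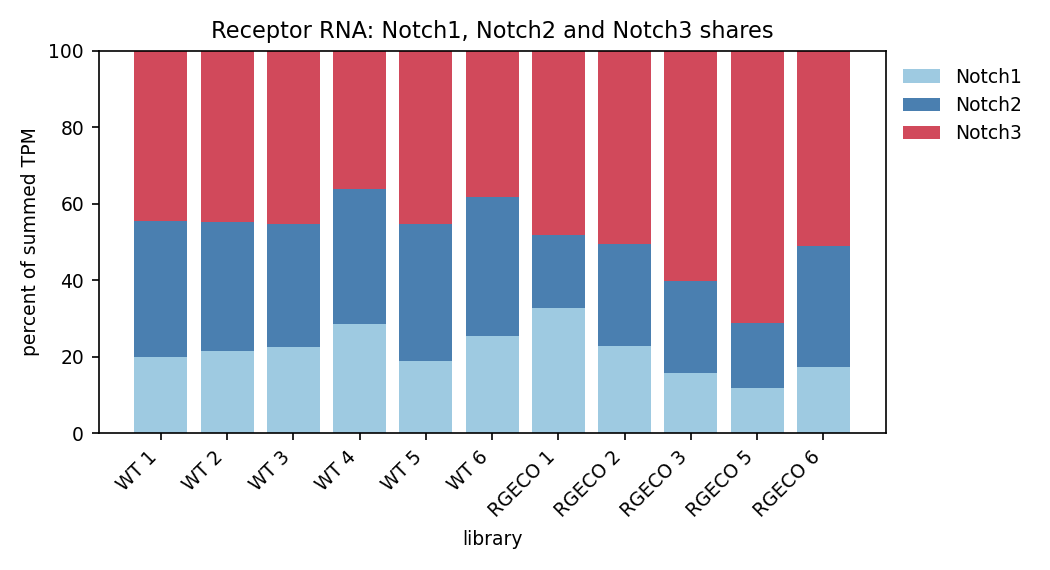
Share of Notch1, Notch2 and Notch3 in their summed TPM, in percent, for each of 6 WT and 5 RGECO libraries; each bar adds up to the whole. The Notch3 share is 36.2% to 45.4% in WT and 48.1% to 71.3% in RGECO.

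None of the 3 ligands passed the test. Of these, 0 had an unadjusted p under 0.05 in edgeR's quasi-likelihood test, and DESeq2 called 0. Jag2 (ENSMUSG00000002799, chromosome 12: 112907819 to 112929776, GRCm38), a transmembrane ligand of the Jagged type, was the most abundant by TPM. It stood at 40.3, 54.7 and 74.0 CPM in the lowest, median and highest WT library and at 61.7, 53.8, 63.0, 71.1 and 53.5 CPM in RGECO replicates 1, 2, 3, 5 and 6. All RGECO values lay inside the WT range, and the log2 fold change was 0.10 with a 95% interval of -0.25 to 0.45 (adjusted p = 0.792).

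Jag1 (ENSMUSG00000027276, chromosome 2: 137081456 to 137116644, GRCm38), the second Jagged ligand, was lower than Jag2 by TPM and varied little. It stood at 18.9, 20.0 and 25.4 CPM in the lowest, median and highest WT library and at 16.0, 19.7, 20.6, 15.9 and 20.2 CPM in RGECO replicates 1, 2, 3, 5 and 6. RGECO replicates 1 and 5 lay below the WT range, and the log2 fold change was -0.20 with a 95% interval of -0.50 to 0.10 (adjusted p = 0.462).

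Dll1 (ENSMUSG00000014773, chromosome 17: 15367354 to 15376872, GRCm38), a Delta-type ligand that in mouse keeps muscle progenitors from differentiating early, varied most among the ligands. It stood at 16.5, 21.4 and 32.5 CPM in the lowest, median and highest WT library and at 11, 19.3, 18.5, 30.8 and 13 CPM in RGECO replicates 1, 2, 3, 5 and 6. RGECO replicates 1 and 6 lay below every WT library while replicate 5 lay near the highest. For Dll1 the log2 fold change was -0.28 with a 95% interval of -0.81 to 0.24 (adjusted p = 0.560). With the Malat1 share as a covariate Dll1 passed at -0.57 (adjusted p = 0.0375), in a fit that called 2771 genes against 1112 in the main fit. Over the alternatives other than single libraries left out, its adjusted p ran from 0.0375 to 0.675.

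The shares of ligand RNA overlapped between the lines. Of the summed TPM of the 3 ligands, Jag2 gave 57.0% ± 11.3 in WT and 63.6% ± 11.4 in RGECO (SD, n = 6 and 5). Dll1 made up 29.0% ± 9.78 and 24.8% ± 12.2 (SD, n = 6 and 5), and Jag1 14.0% ± 2.68 and 11.6% ± 1.20 (SD, n = 6 and 5). On estimated counts, which are not corrected for length, the lines overlapped too. There Jag2 gave 55.9% ± 4.30 and 62.2% ± 4.37, Dll1 22.3% ± 2.23 and 18.5% ± 5.32, and Jag1 21.8% ± 4.24 and 19.3% ± 3.73 (SD, n = 6 and 5).

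None of the 4 Hes and Hey factors passed the test either, with 0 at an unadjusted p under 0.05 in edgeR and 0 called by DESeq2. Hes1 (ENSMUSG00000022528, chromosome 16: 30064384 to 30067796, GRCm38), the repressor most often read as an output of Notch, stood at 26.8, 37.9 and 42.6 CPM in the lowest, median and highest WT library. In RGECO replicates 1, 2, 3, 5 and 6 it stood at 43.1, 27.9, 32.9, 26.4 and 41.3 CPM. The ranges of the lines nearly coincided, and the log2 fold change was -0.08 with a 95% interval of -0.42 to 0.27 (adjusted p = 0.843).

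Hey1 (ENSMUSG00000040289, chromosome 3: 8663359 to 8667256, GRCm38), a related repressor that Notch induces, stood at 8.35, 12 and 16.2 CPM in the lowest, median and highest WT library. In RGECO replicates 1, 2, 3, 5 and 6 it stood at 16.2, 13.1, 14.1, 9.45 and 9.45 CPM. On the log2 scale the difference was 0.01 with a 95% interval of -0.44 to 0.46 (adjusted p = 0.985), and nearly the whole WT range was covered by RGECO.

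Heyl (ENSMUSG00000032744, chromosome 4: 123233556 to 123249875, GRCm38), which with Hey1 is needed in mouse satellite cells to stay undifferentiated, was the lowest of the 10 genes by TPM. It stood at 4.84, 6.59 and 8.62 CPM in the lowest, median and highest WT library and at 2.68, 3.24, 6.82, 5.78 and 8.02 CPM in RGECO replicates 1, 2, 3, 5 and 6. RGECO replicates 1 and 2 lay below every WT library. On the log2 scale the difference was -0.33 with a 95% interval of -0.95 to 0.30 (adjusted p = 0.572), the widest of the 10.

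Hes6 (ENSMUSG00000067071, chromosome 1: 91411483 to 91414038, GRCm38) differs in role, since it is induced by myogenic and neurogenic factors, counters Hes1 and favours differentiation. It stood at 77.7, 93.7 and 133 CPM in the lowest, median and highest WT library and at 98.1, 80.1, 123, 95.2 and 81.0 CPM in RGECO replicates 1, 2, 3, 5 and 6. All RGECO values lay inside the WT range, and the log2 fold change was -0.10 with a 95% interval of -0.45 to 0.24 (adjusted p = 0.776). Of the summed TPM of the 4 factors, Hes6 gave 65.2% ± 3.46 in WT and 67.9% ± 3.89 in RGECO (SD, n = 6 and 5), and Hes1 made up 29.5% ± 3.79 and 26.2% ± 3.92. On estimated counts the Hes1 share was 23.3% and 23.4%.

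**Figure D3:**
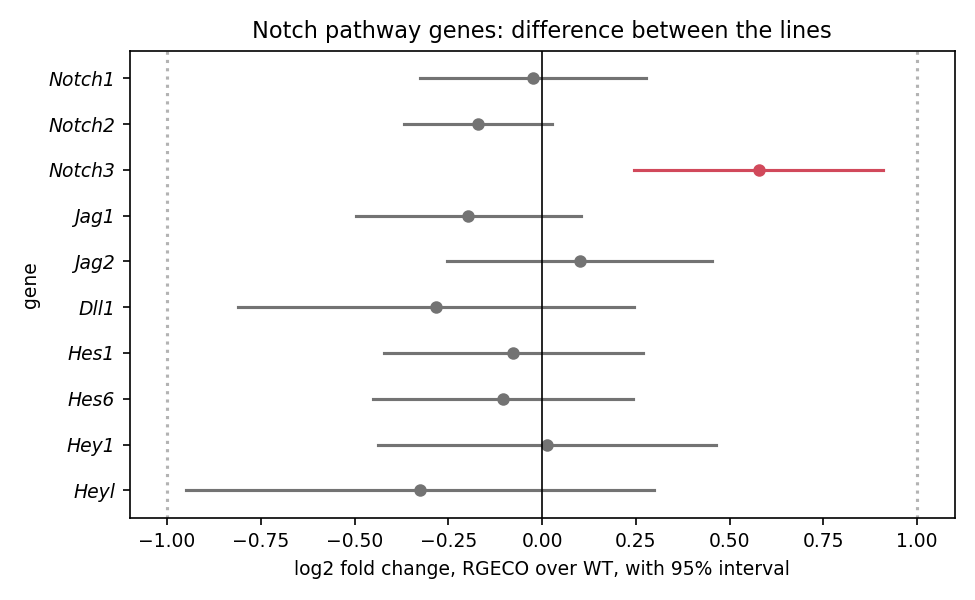
Log2 fold change of the 10 genes, RGECO over WT, with 95% intervals from edgeR; dotted lines mark a 2-fold difference, and red marks adjusted p under 0.05. Notch3 at 0.58 is the gene in red, and all 10 intervals lie inside 2-fold.

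All 10 genes had a 95% interval inside 2-fold in either direction, and so had 74.0% of all tested genes. The lines overlapped in CPM in all 10, and over all tested genes 7.97% showed no overlap. The median log2 fold change of the 10 genes was -0.09, with 3 above 0, and that of all tested genes was -0.01.

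By TPM, which allows levels of different genes to be compared, the order was much alike in both lines. Hes6 was highest in every library, with a median of 95.5 TPM in WT and 96.0 TPM in RGECO, and its range did not overlap that of the next gene in either line. In WT the next were Hes1 at 46.4, Notch3 at 29.2, Notch2 at 25.9, Jag2 at 22.1, Notch1 at 16.6, Dll1 at 10.1, Hey1 at 6.14, Jag1 at 5.15 and Heyl at 1.61 TPM (medians of 6). Besides the first, the last step, from Jag1 to Heyl, was the only one of these with ranges that did not overlap, so the order of the neighbours between is not separated by their spread. In RGECO Notch3 stood second at 64.8 TPM, ahead of Hes1 at 46.3 TPM in median and in 4 of 5 libraries, whereas Hes1 exceeded Notch3 in 5 of 6 WT libraries. The relative length of Hes1 was 0.71 to 0.73 in WT replicates 1, 2 and 3, against 0.87 to 1.25 in the other libraries. For Notch3 it was lowest in RGECO replicate 5, at 0.74. The part of these lengths in the exchange of Hes1 and Notch3 was not tested. The later order of medians, from Notch2 to Heyl, was the same in both lines, while by means Jag2 at 25.0 TPM stood above Notch2 at 24.3 TPM in RGECO and below it in WT, at 22.8 and 25.4 TPM; in RGECO the steps from Hes1 to Notch2 and from Jag1 to Heyl had ranges that did not overlap, and Heyl was lowest at 1.55 TPM in RGECO.

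The 10 genes varied together across the WT libraries in part. For 6 of them, Notch1, Notch2, Notch3, Jag2, Hes6 and Hey1, the WT replicates 2 and 3 held the 2 highest values in CPM. Over all 13318 tested genes the same 2 libraries were highest in 13.6%. WT replicate 2 also had the lowest Malat1 share at 0.156% and the lowest mitochondrial share at 0.204%, while WT replicate 3 had 0.566% and 0.530%. The pattern was chosen after the values were seen, and the part of these shares in it was not tested.

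The rest of the pathway was read from 59 other genes in 6 lists, of which 46 were tested. Of the 46, 1 rose and 1 fell, against 8.35% called of all tested genes, or 0 and 0 with all 12 libraries, 2 and 0 under the replicate block and 1 and 0 on log2(TPM + 1), and the median log2 fold change was -0.04. Rbpj, the DNA-binding partner of the cut receptor, stood at 157 ± 35.3 and 165 ± 16.8 CPM (SD, n = 6 WT and 5 RGECO), which is 0.08 ± 0.15 SE in log2 (adjusted p = 0.827). Of 17 genes of the nuclear complex with its co-activators and co-repressors, all tested, 0 were called by edgeR, 3 had an unadjusted p under 0.05, and DESeq2 called 1. Of 9 receptor-cutting enzymes 0 were called, 1 had an unadjusted p under 0.05 and DESeq2 called 0. Adam10, which makes the first cut after a ligand binds, stood at 77.2 ± 25.5 and 109 ± 20.6 CPM (SD, n = 6 WT and 5 RGECO), 0.49 in log2 (adjusted p = 0.173). It passed under the replicate block (0.0391) and with the Malat1 covariate (8.12e-04), and is named after its values were seen. The Malat1 fit called 2771 genes, against 1112 in the main fit. Of 4 tested glycosyltransferases, enzymes that tune which ligand a receptor answers, 0 were called, 1 had an unadjusted p under 0.05 and DESeq2 called 0.

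Of 13 tested genes of ligand and receptor trafficking 0 rose and 1 fell, against 8.35% called of all tested genes. This was Dtx4, a ubiquitin ligase that acts on Notch receptors, which fell from 55.3 ± 3.47 to 40.6 ± 3.87 CPM (SD, n = 6 and 5), or -0.45 ± 0.10 SE on the log2 scale (adjusted p = 0.0139). Its WT libraries, from 51.1 to 59.5 CPM, all lay above its RGECO libraries, from 36.4 to 46.1 CPM. The call was lost on leaving out RGECO replicate 2 or 6 (adjusted p = 0.0551 and 0.0515), with all 12 libraries (0.187), under the replicate block (0.0683) and on log2(TPM + 1) (0.277). In the last 2 fits the list held 1 gene that rose and 0 that fell. That gene was Mib1, a ubiquitin ligase that makes ligands active and is named after its values were seen, at 152 ± 33.7 and 200.2 ± 29.8 CPM (SD, n = 6 WT and 5 RGECO). Its difference of 0.40 in log2 did not pass on counts (adjusted p = 0.124) and passed under the block (0.0317), on log2(TPM + 1) (0.00614) and with the Malat1 covariate (0.00120). The Malat1 fit called 2771 genes, against 1112 in the main fit.

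Of 8 other genes listed here as targets of Notch, 3 were high enough to test. Whether each of them answers to Notch in these tissues was not tested. Hes5 and Hes3 had 0 counts in each of the 11 libraries, under the floor of 3 counts, and Hes2, Hes7 and Hey2 did not pass the filter. Of the 3 tested, 1 rose and 0 fell, against 8.35% called of all tested genes. Bhlhe40, a relative of Bhlhe41, gave most of the list's summed level, at 481 ± 71.8 and 506 ± 25.3 CPM (SD, n = 6 WT and 5 RGECO), and Nrarp, a feedback inhibitor of Notch, stood at 1.96 ± 0.531 and 1.84 ± 0.917 CPM. Neither passed, at 0.07 and -0.12 in log2 (adjusted p = 0.759 and 0.904), and both are named after their values were seen. Bhlhe41, a circadian repressor of the same protein class, rose from 90.4 ± 15.9 to 122 ± 10.5 CPM (SD, n = 6 and 5), or 0.43 ± 0.12 SE on the log2 scale (adjusted p = 0.0436). That call was lost on leaving out WT replicate 3, 4, 5 or 6 or any 1 of the 5 RGECO libraries (adjusted p = 0.0535 to 0.107), with all 12 libraries (0.514), under the replicate block (0.0605) and on log2(TPM + 1) (0.134). Of the 6 other receptors and ligands, among them Notch4 and Dll4, 0 passed the filter on low counts, and together they summed to 1.65 to 4.91 CPM in WT and 2.09 to 7.53 CPM in RGECO.

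Genes of reserve and quiescent muscle cells moved in both directions. Of 26 such genes 24 were tested, 2 rose and 5 fell, against 8.35% called of all tested genes, and the median log2 fold change was -0.03. At an unadjusted p under 0.05 in edgeR there were 14, against 22.1% of all tested genes. DESeq2 called 11 of the list, in a fit that called 1674 genes. The lines did not overlap in CPM in 6, against 7.97% of all tested genes. The list was chosen with earlier results known, and no test of it is given. With all 12 libraries 1 rose and 4 fell, where 6.31% of genes were called. Under the replicate block it was 1 and 5, in a fit that called 781 genes. On log2(TPM + 1) it was 2 and 2, where 4.29% of genes were called. The satellite cell markers Calcr and Chrdl2 had 0 counts in all 11 libraries.

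Pax7, the defining factor of satellite cells, stood at 19.1, 23.0 and 30.9 CPM in the lowest, median and highest WT library and at 32.3, 29.0, 36.6, 39.6 and 29.0 CPM in RGECO replicates 1, 2, 3, 5 and 6. The lines overlapped through WT replicates 1 and 2, and the log2 fold change of 0.46 ± 0.16 (SE) did not pass (adjusted p = 0.0822). Without WT replicate 2 it passed (adjusted p = 0.0348). Myf5, a determination factor kept on in reserve cells, stood at 14.8 to 23.6 CPM in WT and 25.6 to 34.5 CPM in RGECO, with no overlap. It rose by 0.58 ± 0.15 SE in log2 (adjusted p = 0.0228), a call lost on leaving out RGECO replicate 1 (0.0656), with all 12 libraries (0.0796), under the replicate block (0.0652) and on log2(TPM + 1) (0.0723). The other gene that rose was Bcl2, which blocks cell death, from 7.02 ± 1.38 to 16.9 ± 1.73 CPM (SD, n = 6 and 5), or 1.27 ± 0.17 SE on the log2 scale (adjusted p = 2.66e-04).

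The growth factor receptor Fgfr4 had the lowest log2 fold change of the list. It stood at 11.5 to 22.9 CPM in WT and at 1.21, 4.92, 5.19, 4.03 and 2.01 CPM in RGECO replicates 1, 2, 3, 5 and 6. Every RGECO library lay below every WT library, and the log2 difference was -2.31 ± 0.33 SE (adjusted p = 3.57e-04). Sdc4, a heparan sulfate proteoglycan of the satellite cell surface, fell from 288 ± 15.2 to 196 ± 10.7 CPM (SD, n = 6 and 5), or -0.56 ± 0.08 SE on the log2 scale (adjusted p = 7.21e-04). With all 12 libraries the log2 fold change of Sdc4 was -0.66 (adjusted p = 0.323). Fgfr1, another receptor of the same family, fell by 0.44 in log2 (adjusted p = 0.0157), a call lost on leaving out RGECO replicate 2 or 6 (0.0667 and 0.0513), with all 12 libraries (0.425) and on log2(TPM + 1) (0.132).

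Spry1, an inhibitor of growth factor signalling that satellite cells need to return to quiescence, fell by 0.68 in log2 (adjusted p = 0.0391). That call was lost on leaving out replicate 1, 3, 5 or 6 of WT or 1, 2, 3 or 5 of RGECO (adjusted p = 0.0525 to 0.101) and on log2(TPM + 1) (0.165). The fifth gene that fell was Cdkn1c, a cell cycle inhibitor, at -1.64 (adjusted p = 0.0471), named after its values were seen. It stood at 12.9 CPM in WT replicate 2 against 2.39 to 6.54 CPM in the other WT libraries, and without that library its log2 fold change was -1.17 (adjusted p = 0.10). Its call was lost too on leaving out replicate 1, 4 or 6 of WT or 1, 3, 5 or 6 of RGECO (adjusted p = 0.0547 to 0.108) and on log2(TPM + 1) (-0.53, adjusted p = 0.442). Markers of fibroblasts and adipogenic progenitors were read beside this list: of 5 tested 2 rose and 1 fell, against 8.35% called of all tested genes. The markers Thy1 and Tcf21 had 1 and 0 counts over the 11 libraries and were not tested. Pdgfra and Lum did not pass, at -0.20 and -0.32 in log2 (adjusted p = 0.563 and 0.825), with Lum at a mean of 1.95 CPM in WT and 1.64 CPM in RGECO. With all 12 libraries, which add the near-empty RGECO replicate 4, 0 markers of this list rose and 0 fell, against 6.31% called of all genes in that fit. Dcn, a matrix proteoglycan, rose from 180.0 ± 41.6 to 350 ± 69.0 CPM and Ly6a, a surface antigen of progenitors, from 315 ± 44.9 to 610 ± 79.4 CPM (SD, n = 6 and 5; 0.96 and 0.96 in log2, adjusted p = 0.00193 and 1.50e-04, or 0.165 and 0.473 with all 12 libraries). Col1a1, the main fibrillar collagen, fell from 2030 ± 463 to 515 ± 188 CPM (SD, n = 6 and 5; -1.98 in log2, adjusted p = 7.18e-05, or 0.0511 with all 12 libraries). In the fit of all 12 libraries the log2 fold changes of Dcn, Ly6a and Col1a1 were 0.82, 0.76 and -2.19. The summed level of the list was 2145 to 3292 CPM in WT and 1331 to 1610 CPM in RGECO, with Col1a1 its largest part in WT. Their part in these results was not tested.

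**Figure D4:**
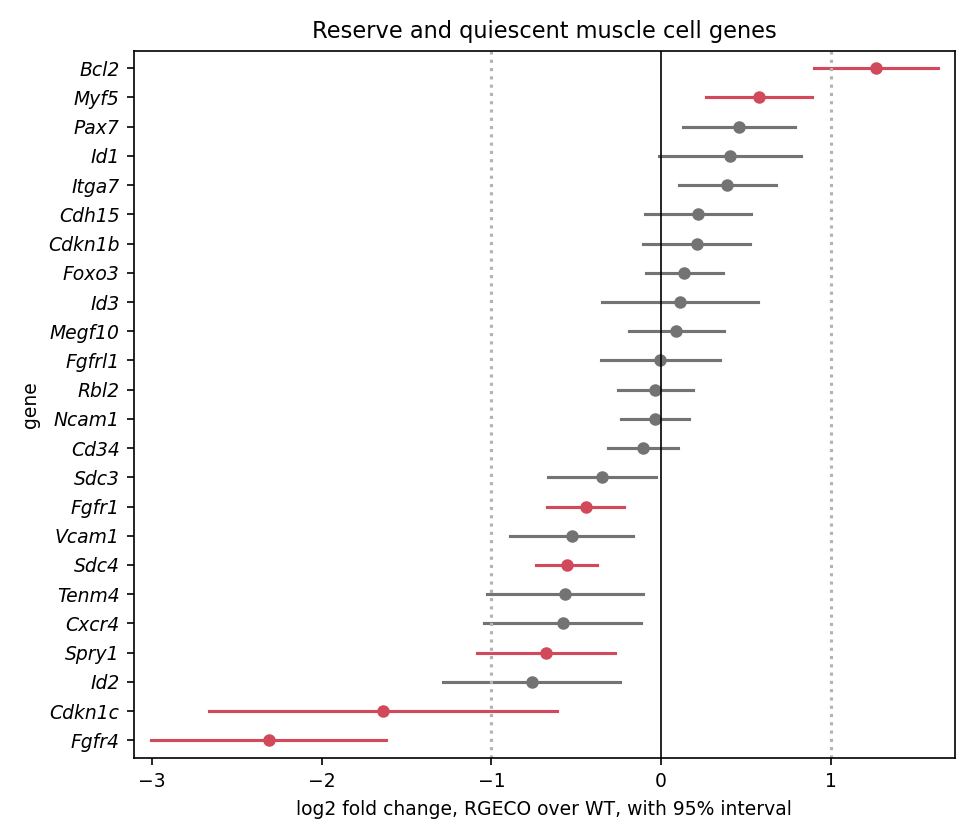
Log2 fold change of 24 tested genes of reserve and quiescent muscle cells, RGECO over WT, with 95% intervals; dotted lines mark a 2-fold difference, and red marks adjusted p under 0.05. Bcl2 at 1.27 and Myf5 at 0.58 rose, and Fgfr4 at -2.31 is the lowest.

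Collagen genes reported as direct Notch targets in mouse satellite cells were tested as a list of 4, of which 0 rose and 2 fell, against 8.35% called of all tested genes. Col6a1 fell from 553 ± 93.4 to 184 ± 41.5 CPM (SD, n = 6 and 5), or -1.59 on the log2 scale (adjusted p = 2.13e-05), and Col6a2 from 270 ± 62.2 CPM to 86.8 ± 24.5 CPM, a log2 fold change of -1.64 (adjusted p = 8.08e-05). Col5a1 and Col5a3 did not pass at -0.39 and -0.31 (adjusted p = 0.105 and 0.410). The median of the list was -0.99. Col1a1, a fibroblast marker outside the list, had a log2 fold change of -1.98 and Pdgfrb, of the pericyte list, one of -1.59; their part in this result was not tested.

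The myogenic factors that Notch holds back are given for reference. Myod1 fell from 112 ± 12.3 to 78.8 ± 16.1 CPM (SD, n = 6 and 5), or -0.51 ± 0.13 SE on the log2 scale (adjusted p = 0.0277), a call lost on leaving out replicate 1, 3 or 5 of WT or 2, 5 or 6 of RGECO (adjusted p = 0.0555 to 0.0985), with all 12 libraries (0.186) and on log2(TPM + 1) (0.145). Myog stood at 563 ± 131 and 498 ± 110 CPM (SD, n = 6 WT and 5 RGECO), which is -0.18 ± 0.17 SE in log2 (adjusted p = 0.596).

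Genes whose levels followed a member within the lines were sought among 7651 or 7652 genes by the Pearson correlation of log2 CPM over the 11 libraries with the mean of the line removed. They are a description with no test, since the highest of so many values was taken and all share library and depth. Notch3 was followed most closely by Ccdc97 and Abl1 (correlation 0.98 and 0.97), Notch1 by Dync1h1 and Ubr4 (0.99 and 0.95) and Notch2 by Ciao3 and Cd276 (0.95 and 0.93). Jag2 was followed by Speg and Kctd17 (0.97 and 0.97), Jag1 by Tpd52l2 and Arhgap35 (0.91 and 0.88) and Dll1 by Hddc3 and Gadd45gip1 (0.95 and 0.95). Hes1 was followed by Zc3h12c and Sox9 (0.93 and 0.90), Hes6 by Nav2 and Rhob (0.97 and 0.97), Hey1 by Mepce and Ltbr (0.93 and 0.93) and Heyl by Swap70 and Csrp3 (0.88 and 0.87). No gene appeared for more than 1 member.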

How the data were processed

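Poly(A)-selected RNA was amplified in 14 PCR cycles and read as paired ends of 50 bases, per the labels' protocols. The authors deposited estimated counts per gene, not normalised, and TPM per gene, corrected for length and scaled to 1000000 in each library; Salmon made both, per the file names and headers. The submitters' processing notes also name STAR, bedtools 2.25.0 and BWA 0.7.12-r1039, and the builds GRCm39, mm10 and hg19. Which role each had and whether counting used strand is not stated in what was used here, so a gene and an antisense partner cannot be told apart. Coordinates come from GENCODE by gene ID and sequences from RefSeq, both on GRCm38.

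Estimated counts were rounded, and edgeR 4.0.16 (R 4.3.3) tested them with filterByExpr, TMM and a two-sided quasi-likelihood F test with robust dispersions. Benjamini-Hochberg adjustment ran over 13318 genes with a threshold of 0.05. Standard errors and 95% intervals come from the F statistic. Limma 3.58.1 on log2(TPM + 1), for genes with at least 1 TPM in 5 libraries, and DESeq2 1.42.0 were alternatives. The edgeR and limma fits were tested on simulated data, and DESeq2 was not. RGECO replicate 4, under a minimum of 1000000 counts, was left out. No pair of libraries was treated as a duplicate, since chi-square per gene was at least 7.62 in all 25 pairs within lines. Nothing in the labels says that replicates were separate cultures, and p-values therefore cover only a spread between samples that may be technical. The members and lists were chosen with earlier results of these data known. All 10 members are named, and of the other lists the called genes (at most 6 a list) plus Rbpj, Pax7, Myf5, Myod1 and Myog. For members, the 2 genes most like each in level are named, from genes whose mean log2 CPM was 4 or more.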

Additional observations from a re-analysis of the deposited data

Results flagged for a closer look

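Among 60 groups of values examined (CPM, TPM and share of each gene in each line), 3 had 1 library far from the others, and chance alone flags about 1 in 20 groups. Notch1 in RGECO replicate 1 was at 47.3 TPM, against 13.4 to 19.9 TPM in the other 4 RGECO libraries, while its CPM there was 97.0. The share of Hey1 in the summed TPM of the 4 factors was 5.17% in WT replicate 5, against 3.48% to 4.08% in the other WT libraries. The share of Heyl was 1.79% in WT replicate 6, against 0.901% to 1.11% in the others.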

How the results depend on the processing

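The count of genes past the threshold was 1112 (456 higher, 656 lower). It was 1674 by DESeq2, 568 (327 higher, 241 lower) on log2(TPM + 1), 537 with 0.1 added, 258 with no filter on TPM, 2771 with the Malat1 share and 3133 with the mitochondrial share as a covariate, and 785 to 1140 without 1 library. All 12 libraries gave 820, of which 237 were higher and 583 lower. Of the 10 members, 1 passed; 0 passed with all 12 libraries, with no filter on TPM, and without a block on the same 10 libraries as the block (chosen after the data were seen), 2 passed with the Malat1 share, and 0 to 1 without 1 library. The log2 fold change of Notch3 was 0.45, 0.91 and 0.53 under the first 3 of these and 0.47 to 0.69 without 1 library, and that of Dll1 was -0.57 with the Malat1 share. The cause was not tested. The other lists, cell type markers left out, held 83 tested genes, among them the reserve cell, collagen and cell cycle genes. Of the 83, 13 passed, against 8.35% called of all tested genes. It was 7 with no filter on TPM, 31 with the Malat1 share and 35 with the mitochondrial share, in fits that called 258, 2771 and 3133 genes. The RGECO minus WT difference in the Heyl share was -0.15 points on TPM and -0.64 on estimated counts, where length is not corrected. The labels do not say whether same-numbered libraries form pairs. Deviations of same-numbered libraries correlated at -0.15 to 0.36 over 5 pairs, and 1 of 5 RGECO libraries, replicate 6, correlated best with its own number. Such correlations cannot show whether samples were cultured or prepared together. Under the replicate block 781 genes and 1 member passed, Notch3 at 0.53 (adjusted p = 0.0491). Heyl, at 653 counts over 11 libraries, is the member that depth limits most.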

Other observations

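Among 9 cell cycle genes, all tested, 1 rose and 1 fell, against 8.35% called of all tested genes, and 7 had an unadjusted p under 0.05, against 22.1% of all. Ccnd1, the cyclin of early G1 phase, rose from 109 ± 11.2 to 232 ± 44.7 CPM (SD, n = 6 and 5), or 1.09 on the log2 scale (adjusted p = 7.58e-05). Ccnb1, the cyclin of mitosis, fell from 25.1 ± 5.35 CPM to 14.1 ± 2.24 CPM, a log2 fold change of -0.84 (adjusted p = 0.00659; 0.0560 under the replicate block). The median of the list was -0.40, against -0.01 over all tested genes. Of the 10 skeletal muscle markers 1 rose and 1 fell, again against 8.35% called of all tested genes. The embryonic myosin Myh3 rose by 0.54 in log2 (adjusted p = 0.0202, or 0.0575 without RGECO replicate 3), and Myod1 fell. With all 12 libraries Myh3 was at 0.30 (adjusted p = 0.962), and 0 markers rose and 0 fell, where 6.31% of genes were called. On log2(TPM + 1) 3 rose and 0 fell, where 4.29% of genes were called. Among glial and neuronal markers 1 was tested, the tubulin Tubb3, which rose by a log2 fold change of 0.78 (adjusted p = 0.0255), a call lost on leaving out replicate 1 or 4 of WT or 1 or 5 of RGECO (0.0523 to 0.0760), and Rbfox3 had 0 counts. Among macrophage and leukocyte markers 1 was tested, Cd68, at -0.01 (adjusted p = 0.993), and Adgre1 had 0 counts.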
